A study of Danio rerio with 4 samples.

Results

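The tissue described here is the growing tip of the normal zebrafish (*Danio rerio*) tail fin after amputation, taken from wildtype fish 96 hours after the cut. Its members are the 2 wildtype libraries, called pool 1 and pool 2, of 4 libraries in the series. The other 2 libraries came from *longfin* heterozygotes. The genotypes are not compared here, but some *longfin* values are given beside differences between the wildtype pools. Each pool held the distal regenerating caudal fin tissue of 4 fins, so values of single fish cannot be read. The fish carried the sp7:eGFP transgene, which marks osteoblasts, and the tissue lay distal to the marked cells. No source says whether the pools came from separate clutches or days.

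A cut zebrafish fin closes with a wound epidermis, under which mesenchymal cells form a blastema and rebuild the bony rays. At its tip, wound epidermis and blastema exchange Wnt, Fgf, Hedgehog, Bmp and retinoic acid signals, while bone-forming cells mature further from the edge. The tip also lays down actinotrichia, stiff fibres of collagen and actinodin proteins that support the fin edge ahead of the bone.

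Messenger RNA was sequenced and the reads were counted per gene. Reads in genes numbered 19602564 in pool 1 and 23157979 in pool 2, and 23736 and 23966 of 31901 gene IDs had at least 1 read. Values are CPM, counts per 1e6 reads in genes, given for pool 1 and then for pool 2. Longer transcripts give more reads, and no transcript lengths were at hand, so an order of genes is an order of reads and not of transcript levels. Symbols in capitals are human gene names that the name table assigns to zebrafish genes. Where several IDs carry a symbol, the ID is printed.

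At least 1 CPM was reached by 16080 genes in both pools and by another 894 in exactly 1 pool. Reads were concentrated in few genes: 3 genes held 10% of the reads, 28 genes held 25% and 424 genes held 50%. For 50% of its reads pool 1 needed 368 genes and pool 2 needed 483. The 83 genes with a mean of at least 1000 CPM held 33.0% of the reads, and the 1517 genes between 100 and 1000 CPM held 35.5%. The 6625 genes between 1 and 10 CPM held 2.88%. Of the 30 genes with most reads in pool 1, 28 were among the 30 of pool 2, and of the 100 genes with most reads 93 were shared. The plot of the 30 leading genes shows them in both pools.

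**Figure D1:**
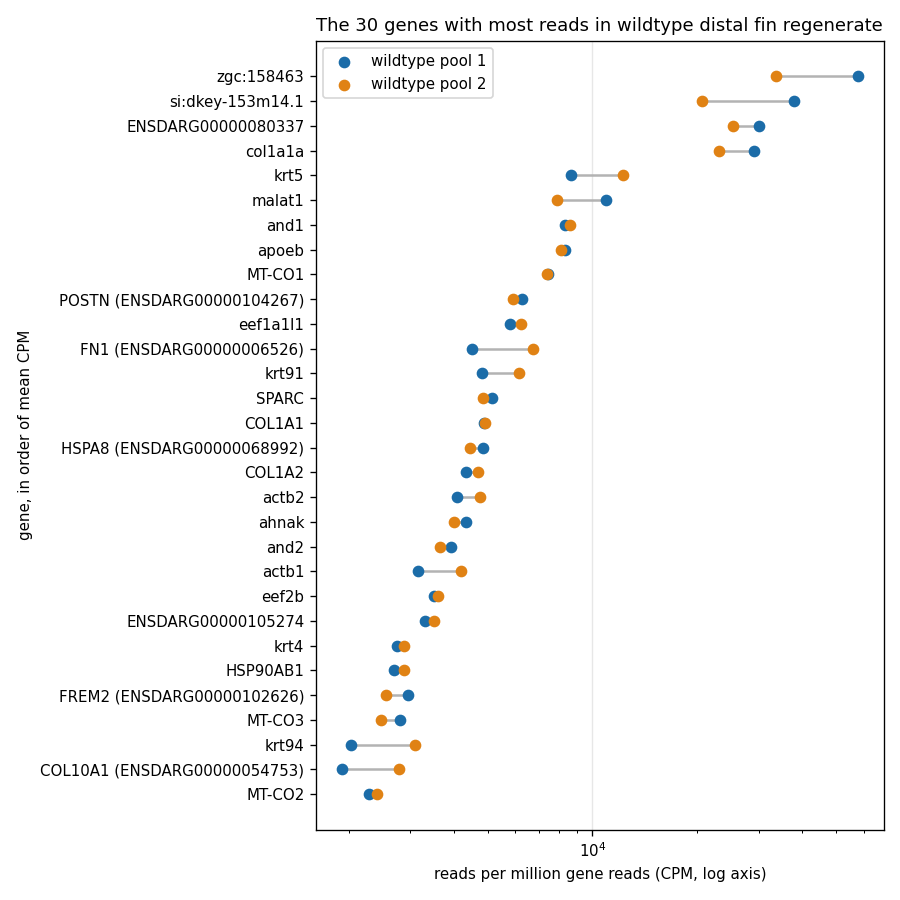
CPM (log axis) of the 30 genes with the highest mean over the wildtype pools, 1 line per gene, with pool 1 in blue and pool 2 in orange. The first 4 genes lie apart from the rest in both pools, and *zgc:158463* and *si:dkey-153m14.1* show wide gaps between the pools.

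Matrix genes of the fin and epidermal keratin genes were frequent among the leading genes. The most read gene with a known product was *col1a1a*, a chain of type I collagen, the main collagen of bone and of actinotrichia, at 29082 and 23092 CPM. Of the other type I chains, COL1A1 stood at 4899 and 4932 CPM and COL1A2 at 4331 and 4696 CPM. *and1*, an actinodin gene of actinotrichia, stood at 8361 and 8619.7 CPM. These collagen and actinodin values differed between the pools by less than a factor of 1.5.

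The keratin gene *krt5*, counted here in the basal epidermis list, had 8699 and 12263 CPM and the keratin gene *krt91* 4823 and 6137 CPM. Both were higher in pool 2. *apoeb*, an apolipoprotein E gene of lipid transport, had 8333 and 8128 CPM. POSTN (ENSDARG00000104267), which encodes the matrix protein periostin, had 6262 and 5918 CPM. FN1 (ENSDARG00000006526), a fibronectin gene of the provisional wound matrix, had 4515 and 6746 CPM. SPARC, which encodes a collagen-binding glycoprotein, had 5137 and 4839.9 CPM. Periostin and SPARC lay slightly higher in pool 1 and fibronectin lay higher in pool 2. Among the 30 were also the translation factor genes *eef1a1l1* and *eef2b*, the chaperone genes HSPA8 (ENSDARG00000068992) and HSP90AB1, the actin genes *actb2* and *actb1*, and the mitochondrial genes MT-CO1, MT-CO2 and MT-CO3. The noncoding nuclear RNA gene *malat1* had 10959 and 7920.3 CPM.

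Of the first 4 genes, 3 have no product named in the sources used here. *zgc:158463* had 57789 and 33615 CPM, *si:dkey-153m14.1* 37768 and 20655 CPM, and ENSDARG00000080337, which has no symbol, 30043 and 25324 CPM. All were higher in pool 1, and together they held 12.6% of its reads against 7.96% of those of pool 2. Over the 4 libraries of the series, the values of *zgc:158463* (57789 and 33615 CPM in wildtype pools, 26934 and 43242 CPM in *longfin* pools) had the same order as the share of reads that did not align uniquely (41.9 and 32.4% in wildtype pools, 28.7 and 36.6% in *longfin* pools). Those of *si:dkey-153m14.1* had that order too, with 16359 and 29111 CPM in *longfin* pools. The values of ENSDARG00000080337 did not, with 25826 and 22730 CPM in *longfin* pools. The part of alignment in the values of these 3 genes was not tested. Because CPM is a share, their excess in pool 1 lowers the CPM of all other genes there.

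Sums over gene classes are shares of reads and not of transcripts, and some genes belong to more than 1 class. The 52 classes held 34.2% of the reads of pool 1 and 35.9% of those of pool 2. Counts of members at 1 CPM or more in both pools stand beside 16080 of all 31901 gene IDs. Collagens were the largest class, and the plot of class shares sets the others beside them.

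**Figure D2:**
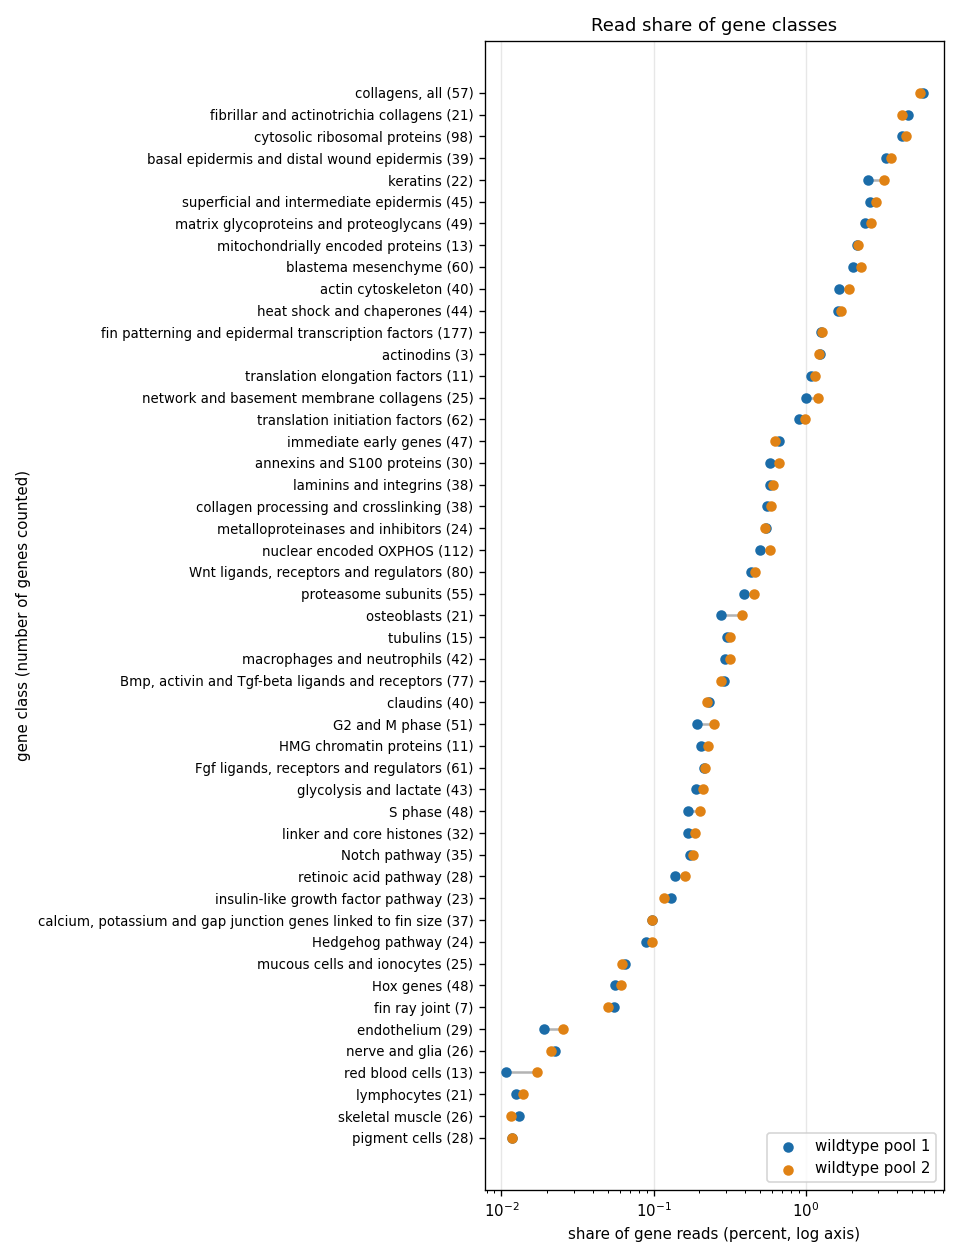
Share of gene reads (percent, log axis) taken by each gene class, with the number of genes counted in parentheses, pool 1 in blue and pool 2 in orange. Collagens, ribosomal proteins, epidermal genes and keratins each took over 2% in both pools, and markers of vessels, blood, nerve, muscle and pigment cells took under 0.03%.

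Collagens took 5.89% and 5.64% of the reads. Of 57 collagen genes, 41 reached 1 CPM in both pools and 25 a mean of 100 CPM, and *col1a1a* alone held 45.2% of the class. The network collagen gene COL10A1 (ENSDARG00000054753), known from hypertrophic cartilage and, in fish, from bone-forming cells, had 1908 and 2786 CPM. COL12A1 (ENSDARG00000019601), whose product binds collagen fibrils, had 1829 and 1909.6 CPM. The anchoring fibril collagen gene *col7a1* of the epidermal basement membrane had 1601 and 1533 CPM. COL2A1 (ENSDARG00000011407), which encodes type II collagen, a component of actinotrichia, had 613 and 582 CPM.

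Actinodin genes took 1.23% and 1.23%, the same share in both pools to within 0.01 percentage points. *and2* had 3927 and 3657 CPM and *and3*, the last of the 3 matched members, 47.5 and 29.8 CPM. Matrix glycoproteins and proteoglycans took 2.46% and 2.68%, with 43 of 49 genes at 1 CPM or more in both pools. After periostin, fibronectin and SPARC came TNC (ENSDARG00000021948), the tenascin C gene of regenerating tissue, at 1740.2 and 2039 CPM. Enzymes and chaperones that fold and cross-link collagen were read in nearly full number, 37 of 38 genes, and took 0.553% and 0.588%. The collagen prolyl isomerase gene PPIB stood at 783 and 885 CPM, and P4HB, which encodes the disulphide isomerase subunit of prolyl 4-hydroxylase, at 769 and 797 CPM.

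Matrix breakdown genes were present beside matrix genes. Metalloproteinases and their inhibitors took 0.548% and 0.541%, with 18 of 24 genes at 1 CPM or more in both pools. MMP2, a gelatinase gene, had 1680.3 and 1604 CPM. MMP14 (ENSDARG00000008388), which encodes the membrane protease that activates MMP2, had 1115 and 1211 CPM. TIMP2 (ENSDARG00000061226), which encodes an inhibitor that also takes part in that activation, had 822 and 769 CPM. The collagenase gene *mmp13b* had 165 and 113 CPM. The first 3 lay within a factor of 1.1 between the pools. Laminins and integrins, which tie epidermis and mesenchyme to the basement membrane, took 0.584% and 0.607%, led by the integrin gene ITGAV with 859 and 948 CPM and LAMB1 (ENSDARG00000101209) with 778 and 854 CPM.

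Markers of cell types were read next, as the label of the tissue rests on them. In bulk tissue a lower value of a marker can come from fewer cells of that type or from less RNA per cell, and these cannot be told apart. The plot of marker genes shows all members of each list.

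**Figure D3:**
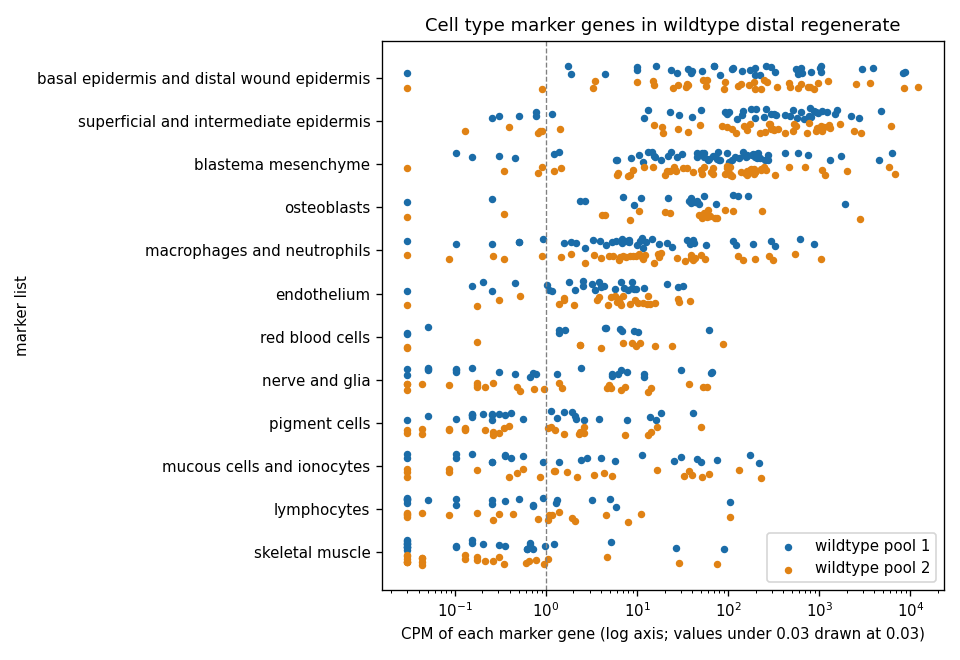
Each point is 1 marker gene in 1 pool, placed by its CPM (log axis, with values under 0.03 drawn at 0.03) and grouped by marker list, with pool 1 in blue and pool 2 in orange and a dashed line at 1 CPM. Nearly all epidermis and blastema markers lie to the right of the line, and most muscle and lymphocyte markers lie to its left.

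Markers from both epidermis lists were read, and the second list joins superficial and intermediate epidermis. Of 39 basal and distal wound epidermis markers, 37 reached 1 CPM in both pools, and their summed share was 3.34% and 3.64%. Besides *krt5*, this list holds the actinodin genes, which basal epidermal cells and mesenchyme of the fin both make. FREM2 (ENSDARG00000102626), which encodes a basement membrane adhesion protein, had 2961 and 2561 CPM. *col17a1b*, a hemidesmosome collagen gene, had 1038 and 1259 CPM, and the E-cadherin gene *cdh1* had 1010.2 and 959 CPM. TP63, the transcription factor gene of basal keratinocytes, had 225 and 229 CPM. Further genes in this list were DLX3 at 196 and 193 CPM, WNT5A at 173 and 168 CPM and LEF1 at 109.7 and 138 CPM. Of 2 SHH genes, 1 (ENSDARG00000038867) had no reads in either pool, and the other (ENSDARG00000068567) had 9.95 and 15.2 CPM.

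Superficial and intermediate epidermis markers took 2.66% and 2.91%, with 40 of 45 genes at 1 CPM or more in both pools. After *krt91* came the keratin genes *krt4*, at 2754 and 2883 CPM, and *krt18a.1*, at 2257 and 2415 CPM. DSP (ENSDARG00000022309), which encodes the desmosomal linker desmoplakin, had 1210.0 and 1267 CPM, and KLF4, a factor gene of barrier differentiation, had 196 and 224 CPM. Keratins as a family took 2.55% and 3.25%. Mucous cell and ionocyte markers took only 0.0653% and 0.0619%. In that list ATP1B1 (ENSDARG00000013144), at 220.1 and 227 CPM, and *ca2*, at 175 and 130.0 CPM, are also read in other cells. Of the ionocyte factor genes, *foxi3a* had 0.255 and 0.389 CPM and *foxi3b* 0.357 and 1.25 CPM.

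Blastema mesenchyme markers took 2.03% and 2.3%, and 55 of 60 reached 1 CPM in both pools. The matrix genes POSTN (ENSDARG00000104267), FN1 (ENSDARG00000006526) and TNC (ENSDARG00000021948), counted among the matrix glycoproteins too, held 62.8% of this sum. Of the homeobox factor genes known from distal blastema, *msx3* had 226 and 199 CPM, *msx2b* 208 and 153 CPM and *msx1b* 158 and 161 CPM. PRRX1, a mesenchymal homeobox gene, had 132 and 163 CPM for ENSDARG00000033971 and 102 and 111 CPM for ENSDARG00000042027. PDGFRA, a growth factor receptor gene of mesenchyme, had 204 and 193 CPM. MDK (ENSDARG00000036036), which encodes the growth factor midkine, had 583 and 693 CPM. *lepb*, a leptin gene whose enhancer is known to act in fin regeneration, had 53.6 and 65.6 CPM. HAND2, known from the pectoral fin buds, was close to 0, with 0.102 and 0 CPM. HAND2 rested on 2 reads in pool 1 and 0 in pool 2. Apart from HAND2, the most unequal of these markers was FN1 (ENSDARG00000006526), 1.49 times as high in pool 2. *msx2b* was 1.36 times as high in pool 1.

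Osteoblast genes were not absent from tissue taken distal to the GFP-marked cells. Of 21 osteoblast markers, 19 reached 1 CPM in both pools, and their summed share was 0.279% and 0.384%, of which the COL10A1 gene named above held 70.8%. SP7, the osteoblast factor gene whose promoter drives the transgene, had 42.9 and 58.1 CPM. IFITM5, a membrane protein gene of mineralising osteoblasts, had 47.3 and 71.6 CPM, and ENTPD5, needed for mineralisation in zebrafish, had 37.2 and 60.8 CPM. *runx2b*, a factor gene of early osteoblasts, had 21.8 and 22.7 CPM. The osteocalcin gene *bglap* of mature osteoblasts had 0 reads in both pools, which allows up to 0.153 CPM in pool 1 and 0.130 CPM in pool 2 (3 reads), and *bglapl* had 0.255 and 0.345 CPM. Of the 19 read markers, 16 were higher in pool 2, SP7, IFITM5 and ENTPD5 among them, against 69.7% of all genes with a mean of at least 1 CPM.

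Joint markers of the fin ray were partly read. *pthlha*, a parathyroid hormone-like gene of joint cells, had 31.3 and 24.4 CPM. The joint factor gene *evx1* had 0 reads in both pools, with the same limits of 0.153 and 0.130 CPM. MMP9, *hoxa13a* and DLX5 held 94.7% of the reads of this list, and they are also read in blastema or epidermis.

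Immune cell markers were also read. Macrophage and neutrophil genes took 0.296% and 0.317%, and 36 of 42 reached 1 CPM in both pools. Much of this sum lies in genes that other cells also read, such as *s100a10b* at 883 and 1037 CPM. *csf1ra*, the receptor gene of macrophages and some pigment cells, had 40.8 and 49.7 CPM, and LCP1, the leukocyte plastin gene, had 38.1 and 56 CPM. The neutrophil lysozyme gene *lyz* had 0 reads in both pools.

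Vessel, blood, nerve, pigment and muscle markers each took under 0.03% of the reads. Endothelial markers summed to 0.0189% and 0.0253%, with *kdrl*, the vascular growth factor receptor gene, at 11.8 and 15.7 CPM and *cdh5*, the cadherin gene of vessels, at 0.459 and 1.55 CPM. Red blood cell markers summed to 0.0107% and 0.0172%, with the haemoglobin gene *hbaa1* at 61 and 86.8 CPM. The listed beta-globin genes *hbba1*, *hbba2*, *hbbe1.1* and *hbbe2* were not found by name, so this sum leaves them out. Nerve and glia markers summed to 0.0224% and 0.0212%, led by the myelin gene *mbpb* at 64 and 59 CPM. Pigment cell markers summed to 0.0117% and 0.0118%, of which *csf1ra*, given above as a gene of macrophages too, held 38.5%. Of the melanin enzyme genes, TYR had 0.561 and 0.302 CPM and DCT 0.051 and 0 CPM. Lymphocyte markers summed to 0.0126% and 0.0138%, of which TCF7, which is also a Wnt pathway gene, held 79.2%. Skeletal muscle markers summed to 0.013% and 0.0116%, and MYOG, a muscle factor gene, held 68.1% of that at 91.1 and 76.1 CPM. The structural muscle genes were near 0, with *ckma* at 0.663 and 0.777 CPM and the 4 matched parvalbumin genes at 1 read or none in each pool.

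Genes of cell division were read throughout. Of 51 G2 and M phase genes, 50 reached 1 CPM in both pools, and of 48 S phase genes, 46 did. *mki67*, a gene of cycling cells, had 236 and 284 CPM, and TOP2A, the topoisomerase gene of chromosome separation, had 130.2 and 173 CPM. PCNA, which encodes the sliding clamp of replication, had 202 and 259 CPM, and RRM1, which encodes a subunit of ribonucleotide reductase, had 106 and 137 CPM. All 4 genes were higher in pool 2.

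Apart from the collagen classes, the largest class was that of cytosolic ribosomal proteins. Cytosolic ribosomal protein genes took 4.3% and 4.55%, with 94 of 98 genes at 1 CPM or more in both pools and 80 at a mean of 100 CPM or more. Reads were spread evenly in this class, since its first gene, RPS2 at 1847 and 2008 CPM, held 4.36% of it. Elongation factors took 1.08% and 1.14% and initiation factors 0.908% and 0.991%. The 13 mitochondrially encoded proteins took 2.18% and 2.19%, against 0.504% and 0.583% for 112 nuclear genes of oxidative phosphorylation. Glycolysis and lactate genes took 0.191% and 0.211%, led by GAPDHS, which encodes a glyceraldehyde phosphate dehydrogenase, at 252 and 298 CPM. Heat shock and chaperone genes took 1.63% and 1.7%.

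Signalling pathways each took under 0.5% of the reads, and both ligand and response genes were read. Only some of the 10 genes with most reads in each pathway are named, and the leading gene of a list can be missing. Ligand genes and some others are named for their roles and were chosen after their values were seen. The Wnt pathway list took 0.436% and 0.465%, led by the beta-catenin genes CTNNB1, at 986 and 1071 CPM, and *ctnnb2*, at 765 and 762 CPM. Of 25 Wnt ligand genes, 15 reached 1 CPM in both pools, against 16080 of 31901 over all gene IDs. Of ligands that act mainly outside the beta-catenin branch, WNT5B had 199 and 197 CPM and WNT5A 173 and 168 CPM. Of ligands of the beta-catenin branch, *wnt3* had 28 and 23.5 CPM and WNT10A 22.4 and 22.9 CPM. WLS, needed to secrete Wnt proteins, had 258 and 308 CPM, and the target and inhibitor gene AXIN2 had 69.7 and 68.2 CPM. Among receptors, FZD2 had 113 and 118 CPM, and 12 of 14 Frizzled genes reached 1 CPM in both pools. DKK3 (ENSDARG00000070683), a Dickkopf family gene, had 334 and 382 CPM.

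In the Fgf list, which took 0.214% and 0.219%, genes that respond to the pathway had most reads. The phosphatase gene DUSP6, a feedback inhibitor, had 473 and 446 CPM. The ETS factor gene ETV4 had 226 and 224 CPM and its relative *etv5b* 112 and 115 CPM. Of further feedback inhibitor genes, IL17RD had 178 and 169.7 CPM, SPRY2 77.2 and 71.9 CPM and SPRY4 65.7 and 62.6 CPM. All 5 receptor genes were read, with FGFR1 (ENSDARG00000011027) at 148 and 178 CPM. Of 25 secreted Fgf ligand genes, 11 reached 1 CPM in both pools, against 16080 of 31901 over all gene IDs. *fgf24* had 39 and 34.7 CPM, FGF20 (ENSDARG00000007356), needed to start fin regeneration in zebrafish, 33.4 and 27.5 CPM, FGF10 (ENSDARG00000030932) 23.5 and 25.6 CPM and FGF3 15.6 and 23.1 CPM. The FGF8 genes were near 0, with no reads for ENSDARG00000039615 and 0.255 and 0.259 CPM for ENSDARG00000003399.

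Hedgehog genes took 0.0885% and 0.0982%. Of the signal transducers, the factor gene GLI2 (ENSDARG00000025641) had 184 and 199 CPM and SMO 77 and 77.9 CPM. The receptor gene PTCH1, which is also a target, had 42.1 and 38.1 CPM. The 4 ligand genes summed to 12.8 and 19.6 CPM, most of it the SHH gene given above. *ihha*, a ligand gene read by osteoblasts, had 2.7 and 4.1 CPM.

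Retinoic acid genes took 0.138% and 0.162%, with genes of both its synthesis and its breakdown. The 3 CYP26 genes, whose enzymes degrade retinoic acid, summed to 425 and 479 CPM, and CYP26A1 had 231 and 299 CPM. Of the genes whose enzymes make it, ALDH1A3 had 76.3 and 107 CPM and ALDH1A2 76.7 and 97.5 CPM. CRABP2 (ENSDARG00000073978), which encodes a binding protein, had 262 and 279 CPM and the receptor gene RARG (ENSDARG00000034117) 170.5 and 212 CPM. These are sums of reads and were not divided by length.

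The Bmp, activin and Tgf-beta list took 0.291% and 0.278%. Ligand genes with most reads were *tgfb1a* at 180.0 and 149 CPM and *tgfb5* at 108 and 207 CPM, and *tgfb5* was 1.91 times as high in pool 2. BMP4 had 48.3 and 51.9 CPM, and INHBA (ENSDARG00000012671), the activin subunit gene known from the early fin blastema, had 46 and 40.6 CPM. ID1, a target gene of Bmp signals, had 136 and 123 CPM, and BAMBI (ENSDARG00000055381), which encodes a decoy receptor, had 166 and 134 CPM. Notch pathway genes took 0.173% and 0.181%, led by the receptor gene *notch2* at 323 and 318 CPM. A further receptor gene, NOTCH3, had 190.2 and 222 CPM, and of the ligand genes *jag1b* had 137 and 143 CPM and *jag1a* 113 and 118 CPM. Insulin-like growth factor genes took 0.13% and 0.118%, with the ligand gene *igf2b* at 54.7 and 54.6 CPM and IGF1 at 0.306 and 0.389 CPM.

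Transcription factors of fin patterning and epidermis were read in 133 of 177 genes, by the floor of 1 CPM in both pools, and took 1.25% and 1.28%. *klf2a*, a Krüppel-like factor gene, had 1218 and 1206 CPM, and YBX1, which encodes a protein that binds RNA and DNA, had 1085 and 1219 CPM. Of AP-1 factor genes, FOSB had 358 and 382 CPM, FOSL2 327 and 387 CPM and JUND 353 and 263 CPM. TFAP2C, an ectodermal factor gene, had 316 and 322 CPM, and *hmga1a*, a chromatin protein gene of dividing cells, 581 and 658 CPM. Immediate early genes as a list took 0.67% and 0.629%. Ion channel, calcium and gap junction genes with known roles in fin size took 0.0976% and 0.0981%, led by GJA1, the connexin 43 gene, at 251 and 194 CPM.

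Hox genes, which give cells their position along the body, showed reads mainly at the end of the clusters. The 48 Hox genes summed to 558 and 614 CPM. At least 1 CPM in both pools was reached by 32 of them, against 16080 of 31901 over all gene IDs. The 6 genes of paralogue group 13, which marks the most posterior and distal structures, held 64.9% of the Hox reads of pool 1 and 63.4% of those of pool 2. *hoxa13b* had 120.3 and 139 CPM and *hoxa13a* 111 and 104 CPM. HOXC13 had 78.6 and 85.5 CPM for ENSDARG00000113877 and 49 and 57.5 CPM for ENSDARG00000070353. Of the other group 13 genes, *hoxd13a* had 1.22 and 1.47 CPM and HOXB13 1.89 and 2.07 CPM. Group 13 was read mainly from the A and C clusters.

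**Figure D4:**
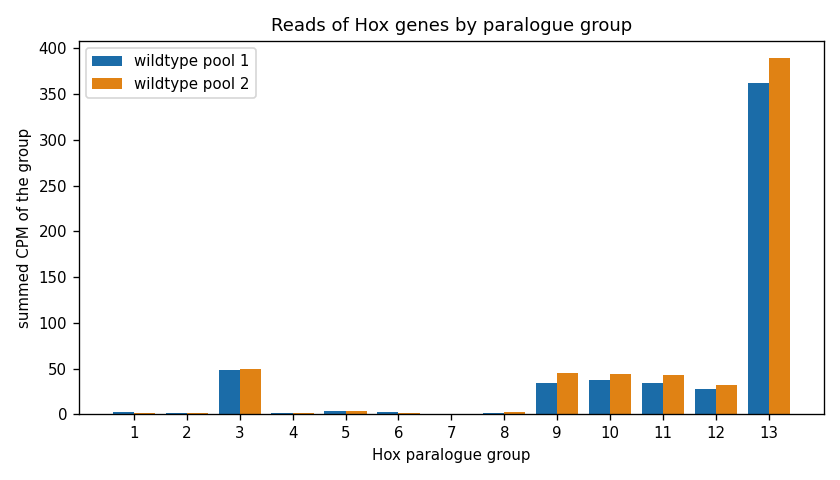
Summed CPM of the Hox genes of each paralogue group, with pool 1 in blue and pool 2 in orange. Group 13 stands at 362 and 389 CPM, groups 9 to 12 at 28.1 to 44.6 CPM each, and of the anterior groups only group 3 rises above 4 CPM.

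The A cluster summed to 328 and 349 CPM, the C cluster to 208 and 239 CPM, the B cluster to 14.9 and 16.3 CPM and the D cluster to 7.75 and 9.67 CPM. Groups 9, 10, 11 and 12 each summed to between 28.1 and 44.6 CPM over both pools. Of anterior genes, HOXA3 stood out with 38.9 and 38.1 CPM, and *hoxc3a* had 9.49 and 10.8 CPM. Other genes of groups 1 to 8 lay under 2 CPM in both pools.

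The pools lay closest to each other for genes of 100 to 1000 CPM and farthest apart for genes of 1 to 10 CPM. Across 16555 genes with a mean of at least 1 CPM, Pearson's r of log2(CPM + 1) was 0.988 and Spearman's rho of the same values 0.987. These are across genes of 1 pair of libraries, and genes are not independent replicates. The log2 ratio of pool 1 over pool 2 had an SD of 0.40 with no pseudocount and of 0.30 on the log2(CPM + 1) scale, which shrinks the ratios of low genes. With no pseudocount, 89.6% of the genes lay within 1.5-fold. The chi-square of the counts per degree of freedom was 27.6, where copies of 1 library would give about 1, and the pools were kept as separate samples. Genes with many reads weigh most in this value, so it is not the excess of a typical gene. For the 6625 genes between 1 and 10 CPM the robust SD of the log2 ratio was 0.40, where counting error alone gives 0.23, and 5.95% of them were past 2-fold. The robust SD was 0.20 against 0.09 for genes between 10 and 100 CPM, 0.15 against 0.03 for genes between 100 and 1000 CPM, and 0.17 against 0.01 for the 83 genes above 1000 CPM.

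Past 2-fold, 465 of the 16555 genes differed between the pools (2.81%), 170 higher in pool 1 (1.03%) and 295 higher in pool 2 (1.78%). Genes between 1 and 10 CPM made up 394 of them, and 71 of 9930 genes with a mean of at least 10 CPM were past 2-fold (0.715%), 38 higher in pool 1 (0.383%) and 33 higher in pool 2 (0.332%). With 1 library on each side there is no test, and the fold describes these libraries. The median log2 ratio, with no pseudocount, was -0.13, and 30.3% of the genes were higher in pool 1 and 69.7% in pool 2. With TMM scaling, which discounts the most unequal genes, the median was -0.01, and 229 genes were higher in pool 1 and 205 in pool 2, so that 52.8% of the genes past 2-fold were higher in pool 1, against 36.6% with CPM. With *zgc:158463* and *si:dkey-153m14.1* left out of the totals, an alternative chosen after seeing the data, the median was -0.06. Of the 465 genes, 321 differed in the same direction between the *longfin* pools of the same numbers. This share was not computed over all 16555 genes, and no source says that pools of the same number belong together.

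**Figure D5:**
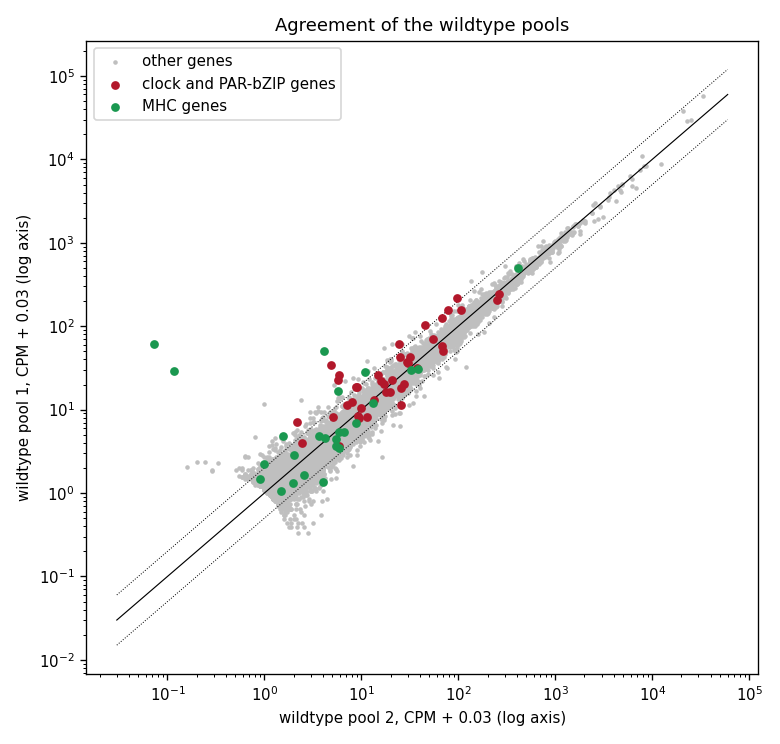
CPM plus 0.03 of each gene with a mean of at least 1 CPM, pool 1 against pool 2 (log axes), with a solid line at equal values and dotted lines at 2-fold. Of 41 clock and PAR-bZIP genes (red), 26 lie above the solid line, and the MHC genes (green) *mhc2dhb* and *mhc2dga* lie far above the dotted lines, at 60.4 and 29.2 CPM in pool 1.

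Among genes with a mean of at least 10 CPM, the widest differences were in class II genes of the major histocompatibility complex (MHC), which present antigens and vary strongly between individuals. *mhc2dhb* had 1184 reads in pool 1 and 1 read in pool 2, or 60.4 and 0.0432 CPM. The ratio was 1399, and its 95% exact conditional interval ran between 251 and 55294. *mhc2dga* had 572 reads and 2 reads, or 29.2 and 0.0864 CPM. Here the ratio was 338 and the interval ran between 93.1 and 2797. The intervals cover counting error only. *mhc2dgb* had 51 and 4.06 CPM. For these genes the *longfin* pools of the same numbers differed the same way, with 508 and 6 reads for *mhc2dhb*, 193 and 4 reads for *mhc2dga* and 451 and 69 reads for *mhc2dgb*. Over the MHC list at a mean of at least 1 CPM, 12 genes were higher in wildtype pool 1. Of these 12, 8 were also higher in *longfin* pool 1 than in *longfin* pool 2. This share was not computed over all genes. Of 25 MHC genes with a mean of at least 1 CPM, 8 were past 2-fold, 7 higher in pool 1 and 1 higher in pool 2, against 2.81% of all genes past 2-fold, 1.03% higher in pool 1 and 1.78% higher in pool 2. Their median log2 ratio was -0.12, against -0.13 over all genes. The median level over all 37 genes of the MHC list was 2.65 CPM, and 5.95% of all genes between 1 and 10 CPM were past 2-fold. The class I gene with most reads, *mhc1zba*, had 497 and 416 CPM. MHC genes have close copies, so reads can be lost or shared between them. The MHC list was added after values were seen, so its counts were partly fixed by that choice.

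A second group of genes higher in pool 1 was of the circadian clock. PER1 (ENSDARG00000056885), a light- and clock-driven repressor gene, had 34.5 and 4.88 CPM, 7.08 times as high in pool 1. NR1D1, the nuclear receptor gene of the clock's second loop, had 26.3 and 5.83 CPM, and *dbpb*, a PAR-bZIP output gene, 22.4 and 5.66 CPM. Among genes with a mean above 100 CPM, *nr1d2a* had 221 and 96.5 CPM and PER3 157 and 78.5 CPM. Of 41 clock and PAR-bZIP genes with a mean of at least 1 CPM, 11 were past 2-fold, 10 higher in pool 1 and 1 higher in pool 2, the cryptochrome gene *cry3b* at 11.2 and 25.9 CPM. Over all genes the shares were 2.81%, 1.03% and 1.78%. At any size of difference, 26 of the 41 were higher in pool 1 and 15 in pool 2. All 26 were also higher in *longfin* pool 1 than in *longfin* pool 2, and PER1 (ENSDARG00000056885) had 33.2 and 4.01 CPM there. No such share was computed over all genes. Of Fgf list genes higher in wildtype pool 1 the same held for 17 of 17, and of ribosomal protein genes for 13 of 13. In the Wnt list it held for 12 of 21. The median log2 ratio of the 41 in the wildtype pools was 0.38, against -0.13 over all genes. This list was drawn up after the values of its first genes were seen, so its counts were partly fixed by that choice.

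Of 20 genes known to respond to glucocorticoids and with a mean of at least 1 CPM, 15 were higher in pool 1, against 30.3% of all genes. FKBP5, a receptor co-chaperone gene, had 349 and 135 CPM, KLF9 54.2 and 17.1 CPM, DDIT4, an inhibitor gene of growth signalling, 62 and 20.4 CPM, and *cdkn1a*, which encodes the cell cycle inhibitor p21, 19.7 and 5.14 CPM. Past 2-fold were 6 of the 20, all higher in pool 1, against 1.03% of all genes, and the median log2 ratio was 0.31. Of the 15, 14 were also higher in *longfin* pool 1 than in *longfin* pool 2, and FKBP5 had 91.2 and 14.5 CPM there. This share was not computed over all genes either. Of immediate early genes higher in wildtype pool 1, the same held for 22 of 25, and of Wnt list genes for 12 of 21. The 6 include both PER1 genes of the clock list, and this list too was drawn up after values were seen. Its counts were therefore partly fixed by that choice, and the share over all genes is no test of them.

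Genes with a large excess in pool 2, among those with a mean of at least 10 CPM, were of mixed function or have no named product. PKHD1L1 (ENSDARG00000091116) had 6.27 and 25 CPM, *si:dkeyp-1h4.8* 32.7 and 121 CPM and the interleukin 13 receptor gene *il13ra2* 6.48 and 21.1 CPM. *scpp7*, of the secretory calcium-binding phosphoproteins known from teeth and scales, had 14.5 and 44.6 CPM. *cyp2aa7*, *tuba8l5* and *si:dkey-223p19.1* were between 2.72 and 2.93 times as high in pool 2.

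Several classes leaned to pool 2. Of 50 G2 and M phase genes with a mean of at least 1 CPM, 49 were higher in pool 2, and of 46 S phase genes, 41 were, against 69.7% of all genes. Their median log2 ratios were -0.36 and -0.29, and 0 genes of either list were past 2-fold. Nuclear genes of oxidative phosphorylation were higher in pool 2 in 93 of 100 cases, and proteasome genes in 52 of 53. With TMM scaling the summed log2 ratios stayed below 0, at -0.24 for G2 and M phase, -0.16 for S phase, -0.23 for keratins and -0.34 for osteoblasts. The keratin sum leans on few genes, since *krt5* alone held 36.1% of it. Of 15 keratin genes with a mean of at least 1 CPM, 12 were higher in pool 2. Their median log2 ratio with CPM was -0.19, against -0.13 over all genes. The summed log2 ratio of oxidative phosphorylation was -0.21 with CPM and -0.09 with TMM scaling, and that of the proteasome -0.22 and -0.10. Vessel and blood markers moved with them: 24 of 25 endothelial genes and 10 of 10 red blood cell genes with a mean of at least 1 CPM were higher in pool 2. Past 2-fold were 5 of the 25 and 2 of the 10, against 1.78% of all genes. The median level was 5.02 CPM over the whole endothelial list and 5.79 CPM over the whole red blood cell list. Of all genes between 1 and 10 CPM, 5.95% were past 2-fold in either direction. Endothelial markers summed to 189 CPM in pool 1 and 253 CPM in pool 2, and red blood cell markers to 107 and 172 CPM. The part of tissue make-up in the division, keratin and osteoblast values was not tested.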

How the data were processed

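RNA of distal regenerating caudal fin tissue was measured in 2 wildtype pools. RNA came from TRIzol lysates and went through a Kapa kit for stranded mRNA libraries, per the labels' protocols. The submitters' processing notes list TopHat2, HTSeq and the build GRCz11 (danRer11), as tools of the authors. Tool versions, annotation release and counting strand are not given in these sources, so genes with an antisense neighbour are uncertain. Deposited values are the authors' counts of whole reads for each Ensembl gene ID, with no scaling. The 6 rows that name no gene stayed out of library sizes. In pool 1, 41.9% of all reads did not align uniquely, 8.58% lay in no gene and 1.08% were ambiguous, and in pool 2 the shares were 32.4%, 9.04% and 1.24%. Such reads are missing from genes with close copies. Counts on 19602564 and 23157979 reads make 3 reads equal to 0.153 and 0.130 CPM.

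CPM, class sums, correlations on log2(CPM + 1) and fold differences between the pools were computed in Python 3.11.15 (pandas 2.3.3, scipy 1.17.1). A gene counted as past 2-fold when its mean was at least 1 CPM. One group of 2 pools allows no test, so no p-value is given. edgeR 4.0.16 (TMM) and DESeq2 1.42.0 in R 4.3.3 served only for scaling factors, as alternatives. Scripts were tested on simulated data. The gene-name table names 29178 of 31901 IDs. Of 1543 list entries, 1473 found a gene, 903 through the human symbol, which can bring in both zebrafish copies.

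Named genes were the 30 with most reads, the 4 with most reads of each class (10 for signalling and transcription factor classes), the 8 with the largest fold between the pools each way at a mean of at least 10 CPM, and markers that the tissue label rests on. Some genes that this rule picks are not reported here. Other genes were named after their values were seen. A planned order by level per length was not made, because no transcript or coding lengths were at hand. The members and lists were chosen with earlier results of these data known, and the clock, glucocorticoid and MHC lists were added after values were seen.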

Additional observations from a re-analysis of the deposited data

How the results depend on the processing

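With the 3 most abundant genes left out of the totals, mitochondrially encoded proteins took 2.44% of the reads, matrix glycoproteins 2.87%, ribosomal proteins 4.93% and collagens 6.43%. With zebrafish symbols alone, which lose every gene named by its human symbol, these shares were 0.0177%, 0.0837%, 0.542% and 3.55%. Over the 52 class shares, 41 and 47 moved by more than the spread between the pools under these settings. Leaving out the 3 genes raised every class share, because the totals became smaller, so the 41 mainly reflect how narrow the spread was. Each pool alone gave 368 to 483 genes for 50% of the reads, and shares of 2.18 to 2.19% for mitochondrially encoded proteins, 2.46 to 2.68% for matrix glycoproteins, 4.3 to 4.55% for ribosomal proteins, 5.64 to 5.89% for collagens and 2.55 to 3.25% for keratins. For genes with a mean of at least 10 CPM, Pearson's r was 0.983, Spearman's rho 0.976 and the SD of the log2 ratio of CPM + 1 0.26. With no filter they were 0.993, 0.983 and 0.28. A pseudocount of 0.1 CPM gave r = 0.984 and an SD of 0.38, and one of 5 CPM gave 0.991 and 0.21. Past 2-fold were 835 genes at a mean of at least 0.5 CPM, 129 at 5 CPM, 71 at 10 CPM and 5143 with no filter, and 1725 were past 1.5-fold. Leaving *zgc:158463* and *si:dkey-153m14.1* out of the totals, an alternative chosen after seeing the data, gave 209 genes higher in pool 1 and 263 higher in pool 2. The order of genes per length could not be computed. No paired analysis was possible because no model is fitted to the 2 wildtype pools. The log2 ratio of pool 1 over pool 2 correlated across genes with that of the *longfin* pools of the same numbers (r = 0.338 at a mean of at least 1 CPM, 0.489 at 10 CPM), and 321 of the 465 genes past 2-fold differed in the same direction there. The share with the same direction was not computed over all genes, and the pools were matched by their label numbers only.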

Other observations

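Many zebrafish genes exist in pairs of copies, and the gene-name table gives 1596 symbols in capitals to exactly 2 counted IDs. Pairs in which a copy has a zebrafish symbol were not counted. In 1273 of these pairs the copy with more reads had a mean of at least 1 CPM, and in 861 both copies did. The copy with more reads held at least 90% of the pair's reads in 508 pairs. Among the 861 pairs with both copies read, the same copy had more reads in both pools in 823. These counts are of reads, and transcript lengths of the copies were not taken into account.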
